A study of Arabidopsis thaliana with 8 samples.

Results

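The loci described here are pseudogene-annotated genes around the 5 Arabidopsis centromeres, each read by a probe set of its own. A probe set was included when its identifier ends in _at and not in _s_at or _x_at, which marks probes designed for a single transcript. It also had to name exactly 1 gene that RefSeq annotates with the biotype pseudogene and that starts in the pericentromeric window of its chromosome in the assembly TAIR10.1. No signal was used to choose them. Probe sequences were not used either, so binding of these probes to related copies elsewhere could not be checked. The rule found 592 probe sets for 592 different genes, out of 22746 probe sets on the array (2.60%) and out of 3346 pseudogene-annotated genes that TAIR10.1 places in these windows. Chromosome 1 held 97 of them, chromosome 2 held 179, chromosome 3 held 132, chromosome 4 held 107 and chromosome 5 held 77.

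The comparison is between 15B and the silenced parent, with 4 Affymetrix ATH1 arrays each. 15B is an EMS mutant (mutagenised with ethyl methanesulfonate) of the parent line, and the labels name no altered gene, although the series title concerns hog1. The silenced parent is a Ler (Landsberg erecta) line, homozygous for 1 insert that carries a further chalcone synthase (CHS) sequence and thereby silences the resident copy, TT4. As a mutant of that line, 15B is labelled Ler too. Whole plants were sampled at growth stage 1.04 on M.S. agar medium (0.7% agar, 1% sucrose), with days of 18 h at 22 degrees C that followed 3 days of stratification in the cold. Per the series design, RNA came from pools of 10 plants in 4 biological replicates. 15B is a single mutant line, so a change caused by any of its mutations cannot be told apart from any other. CHS and HOG1 themselves were not analysed here.

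Pericentromeric heterochromatin is the compact, heavily methylated DNA on both sides of a centromere, and in Arabidopsis it is dense in transposons and their remains. DNA methyltransferases, histone methyltransferases and the chromatin remodeller DDM1 keep most of its sequences from being transcribed. HOG1 encodes S-adenosylhomocysteine hydrolase, the enzyme that clears the by-product of methylation reactions, and plants with low activity of it lose part of their DNA methylation. The biotype pseudogene covers transposon genes as well as decayed copies of ordinary genes, and the annotation used here does not separate them. None of the pseudogene-annotated loci named below carries a symbol other than its locus tag, so no role is given for any of them.

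Most of these loci gave almost no signal in the parent, and a minority gained signal in 15B. Signals are in the linear units of the deposited table, in which the 2%-trimmed mean of every array, controls left out, lies between 99.2 and 99.3, and the median of all probe sets lay between 44.3 and 46.3 on arrays of 15B and between 44.3 and 47.7 on arrays of the silenced parent. Of the 592 loci, 65 rose in 15B (11%) and 0 fell (limma across all 22746 probe sets, Benjamini-Hochberg, threshold 0.05). Over all probe sets 2.04% rose and 1.61% fell, and 1.61% of all _at probe sets rose. At an unadjusted p under 0.05, 108 of the loci were higher (18.2%) and 6 lower (1.01%), against 7.54% higher and 9.21% lower over all probe sets. The remaining 527 did not pass. In RNA of whole plants, more RNA per cell and more cells with RNA of a locus cannot be told apart.

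A locus was called switched on when its signal was under 30 on all 4 parent arrays, at 30 or more on all 4 arrays of 15B, and past the threshold of the fit. Under 30 is called silent below, although low signal on an array cannot tell an untranscribed locus from a transcript that these probes bind poorly. The array represents the Columbia genome and both lines are Ler, so a locus that is absent or diverged in Ler would also read as silent. By this rule 25 of the 592 loci were switched on (4.22%), against 0.453% of all probe sets. The mirror rule, from 30 or more down to under 30, found 0 switched off among the loci and 0.0703% of all probe sets. The 0 carries little information, since only 7 of the 592 loci were at 30 or more on all 4 parent arrays and could meet the mirror rule, against 12542 of all probe sets.

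Silence in the parent was the common state. All 4 parent arrays were under 30 for 547 of the 592 loci (92.4%), against 33.6% of all probe sets, and 497 loci stayed under 30 on every array of both lines. Of the 547 silent loci, 61 rose in 15B (11.2%), and 25 of these were switched on. Among all silent probe sets on the array, 2.92% rose and 1.35% were switched on. The number of the 592 loci at 30 or more was 53, 67, 71 and 63 on the arrays of 15B, against 24, 13, 19 and 35 on those of the silenced parent. The groups did not overlap. The highest parent count came from replicate 4, whose scanner background was 198 against 77.6 to 94.3 on the other parent arrays. Without it 61 loci rose and 26 were switched on, among them all 25. Without replicate 2 of 15B, which had 1353 outlier cells against 403 to 505 on the other arrays of 15B, 59 rose and 26 were switched on.

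**Figure D1:**
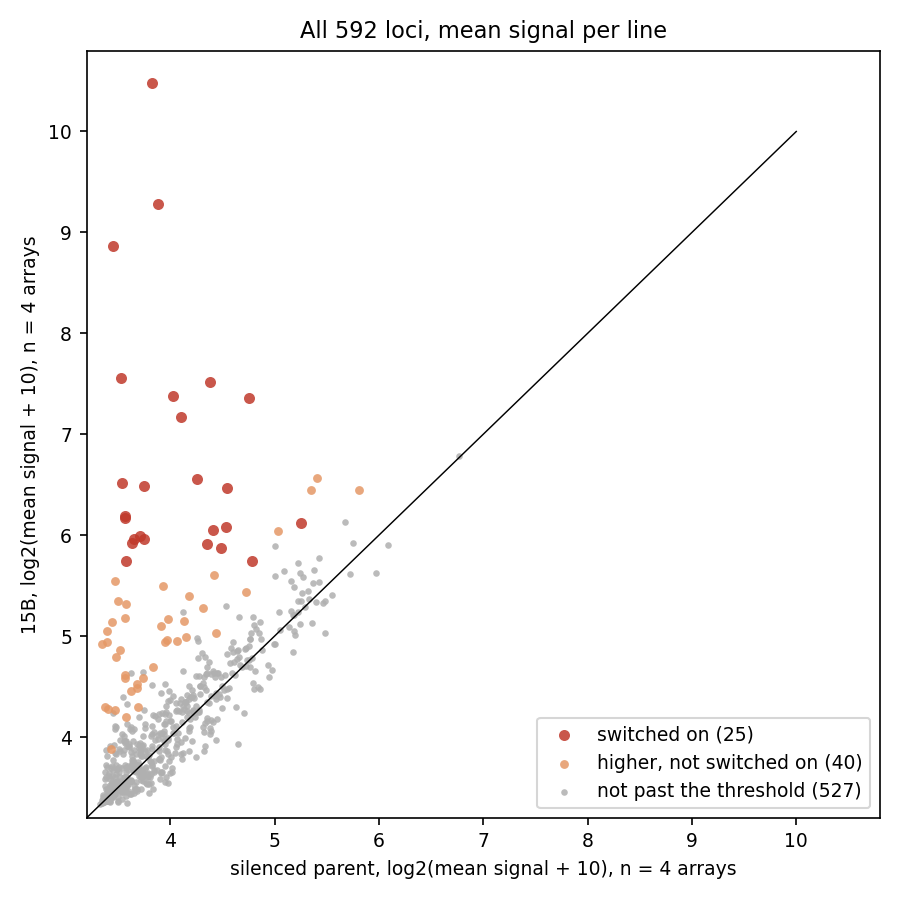
Mean signal of each of the 592 loci, as log2(mean signal + 10), in 15B (vertical axis) against the silenced parent (horizontal axis), with 4 arrays per line and the diagonal as the line of equal signal. The 25 switched-on loci lie above the diagonal, 40 further loci rose, and the other 527 lie around the diagonal. The smallest log2 fold changes of the 25, 0.86 for AT2G10070 and 0.95 for AT3G30480, were no larger than the largest of the 527 in either direction (1.07).

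Of the 527 loci that did not pass, 43 were higher and 6 lower in 15B at an unadjusted p under 0.05. Their mean signal was 7.46, 9.51, 8.60 and 8.75 on the arrays of 15B, against 7.14, 6.84, 7.36 and 8.81 on those of the silenced parent. The groups overlapped through replicate 4 of the silenced parent alone, the array with the high scanner background, and the other 3 parent arrays were below every array of 15B. The median log2 fold change over all 592 loci was 0.07 (quartiles -0.05 and 0.29), against -0.02 over all probe sets. Fold changes are 15B minus silenced parent on the log2(signal + 10) scale, which understates the change of dim probe sets.

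On chromosome 1, 5 of 97 loci were switched on (5.15%), and they include the largest rise of the 592. AT1G43840 read 1109.8, 1793, 1296 and 1480.5 on the arrays of 15B, against 3.6, 0.7, 4.5 and 8.0 on those of the silenced parent. AT1G34530 read 406, 446, 477 and 501 in 15B, against 1.4, 0.5, 0.6 and 1.4 in the silenced parent. For both loci the lowest array of 15B was more than 100 signal units above every parent array. Their log2 fold changes were 6.66 (SE 0.17) and 5.41 (SE 0.10), with limma adjusted p of 3.70e-09 and 1.86e-10. AT1G44060 read 142, 138, 132 and 215 in 15B, against 7.7, 4.0, 4.2 and 9.2 in the silenced parent (log2 fold change 3.35, SE 0.18). AT1G35647 read 74.8, 54.0, 44.0 and 75.0 in 15B, against 0.8, 4.5, 1.3 and 0.9 in the silenced parent (2.58, SE 0.19). AT1G33460 read 47.2, 56.9, 47.4 and 50.4 in 15B, against 1.2, 3.0, 2.0 and 3.4 in the silenced parent (2.29, SE 0.13). Every parent value of these 5 loci was under 10, so none sat near the level that defines silence. AT1G43920 also crossed the level, with 31.7, 56.0, 35.3 and 37.6 in 15B against 27.0, 19.7, 25.3 and 24.5 in the silenced parent, but did not pass the fit (0.54, SE 0.17, limma adjusted p = 0.115).

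Chromosome 2 had the most loci on the array, and 6 of 179 were switched on (3.35%). AT2G14230 read 144, 156, 192 and 223 in 15B, against 0.5, 0.4, 2.1 and 3.2 in the silenced parent (log2 fold change 4.02, SE 0.16). AT2G05000 read 129.7, 160.5, 206 and 196 in 15B, against 11.3, 13.5, 11.3 and 7.3 in the silenced parent (3.12, SE 0.16). AT2G10850 read 116, 171, 148 and 180.4 in 15B, against 19.7, 19.0, 13.6 and 15.8 in the silenced parent (2.59, SE 0.15). The first of these was near 0 on all parent arrays, while the other 2 already gave a low and steady signal. AT2G06180 read 55.6, 85.3, 92.7 and 93.9 in 15B, against 1.1, 1.8, 2.0 and 1.6 in the silenced parent (2.96, SE 0.17). AT2G10070 read 51.1, 70.3, 58.7 and 58.1 in 15B, against 26.8, 27.7, 29.3 and 28.4 in the silenced parent (0.86, SE 0.12). AT2G14630 read 47.2, 63.4, 58.6 and 55.9 in 15B, against 7.9, 10.1, 2.3 and 24.6 in the silenced parent (1.74, SE 0.27). AT2G10070 was silent by a narrow margin, with all parent arrays just under 30, and had the smallest change of the 25. The limma adjusted p of the 6 loci ranged between 1.50e-07 and 0.00456.

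On chromosome 3, 3 of 132 loci were switched on (2.27%), all with signals under 60 in 15B. AT3G30360 read 52.8, 48.5, 55.9 and 51.4 in 15B, against 2.7, 1.0, 2.0 and 4.5 in the silenced parent (log2 fold change 2.31, SE 0.13). AT3G29650 read 57.4, 39.7, 51.5 and 45.4 in 15B, against 19.9, 10.9, 8.2 and 10.9 in the silenced parent (1.4, SE 0.18). AT3G30480 read 53.0, 49.2, 38.3 and 33.4 in 15B, against 13.1, 22.6, 14.4 and 20.3 in the silenced parent (0.95, SE 0.17, limma adjusted p = 0.0127). AT3G30360 and AT3G30480 lie near each other in the order of the loci, and AT3G30330, a risen locus, is next to the first among the 592.

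On chromosome 4, 4 of 107 loci were switched on (3.74%). AT4G05640 read 633, 623, 576 and 611 in 15B, against 1.6, 10.3, 5.2 and 1.8 in the silenced parent (log2 fold change 5.44, SE 0.16, limma adjusted p = 1.27e-08). Its mean in 15B was 611 ± 25.1 (SD, n = 4), and its coefficient of variation among arrays of 15B, 4.1%, was the lowest of the 25. On the log2(signal + 10) scale its change and that of AT1G34530 on chromosome 1 differed by less than their SE. With a pseudocount of 1 in place of 10 they were 7.01 for AT4G05640 and 7.89 for AT1G34530. AT4G04170 read 60, 86.4, 75.2 and 91.4 in 15B, against 8.0, 16.7, 6.7 and 21.8 in the silenced parent (1.96, SE 0.22). AT4G05510 read 42.1, 53.7, 49.1 and 64.7 in 15B, against 4.3, 2.3, 2.5 and 4.8 in the silenced parent (2.2, SE 0.15). AT4G04530 read 37.3, 54.1, 51.1 and 58.7 in 15B, against 13.4, 5.1, 12.4 and 10.6 in the silenced parent (1.57, SE 0.18). In gene order these loci span AT4G04170 to AT4G05640, and the last 35 loci in the chromosome's order held 0 switched-on loci.

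Chromosome 5 had the fewest loci and the highest share switched on, 7 of 77 (9.09%). AT5G28570 read 157, 114, 123 and 143 in 15B, against 8.2, 4.8, 3.9 and 12.0 in the silenced parent (log2 fold change 3.08, SE 0.17). AT5G26350 read 102, 65.9, 100.4 and 66.9 in 15B, against 8.6, 10.1, 9.3 and 8.4 in the silenced parent (2.27, SE 0.16). AT5G28880 read 73.6, 120.3, 64.4 and 59.9 in 15B, against 5.2, 1.8, 4.9 and 1.9 in the silenced parent (2.70, SE 0.21). AT5G26350 and AT5G28880 were uneven among the arrays of 15B, yet each array stood clear of the parent. AT5G37880 read 65.6, 73.0, 68.6 and 44.0 in 15B, against 1.3, 2.5, 0.6 and 3.1 in the silenced parent (2.60, SE 0.17). AT5G26020 read 61.8, 45.3, 56.2 and 68.2 in 15B, against 11.6, 11.7, 12.6 and 16.6 in the silenced parent (1.55, SE 0.15). Every parent array of both was under 20. AT5G27160 read 54.2, 54.2, 48.4 and 57.9 in 15B, against 4.0, 0.4, 4.3 and 3.7 in the silenced parent (2.29, SE 0.15). AT5G27180 read 35.3, 46.1, 47.2 and 46.6 in 15B, against 1.6, 3.3, 0.3 and 2.5 in the silenced parent (2.17, SE 0.14). The last pair are neighbours, with the protein-coding gene AT5G27170 between them. The limma adjusted p of the 7 loci ranged between 2.11e-06 and 1.65e-04.

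**Figure D2:**
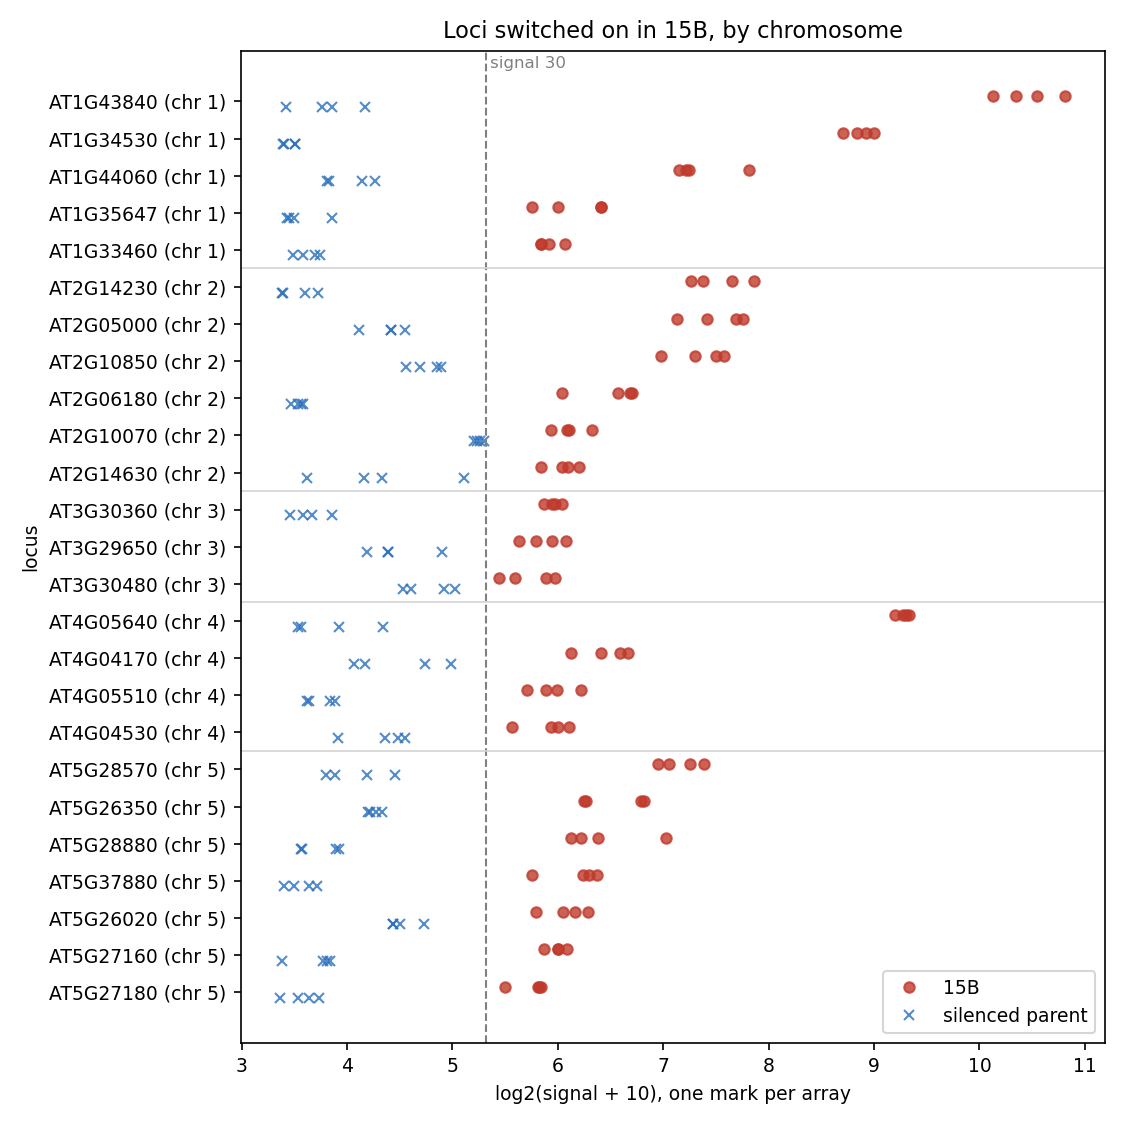
Signal of the 25 switched-on loci on each array, as log2(signal + 10), with circles for the 4 arrays of 15B and crosses for the 4 arrays of the silenced parent, grouped by chromosome. The dashed line is a signal of 30, and in every row the circles lie to its right and the crosses to its left.

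Over all 592 loci, every array of 15B was above every parent array for 86 (14.5%, against 4.75% of all probe sets) and below for 2 (0.338%, against 5.78%). For the 25 switched-on loci the rule itself fixes this separation. The lowest array of 15B was at least 5 times the highest parent array for 18 of them, and all 4 parent arrays were under 10 for 13. All 4 arrays of 15B were at 60 or more for 10 loci and at 100 or more for 8. The coefficient of variation among arrays of 15B was at most 34.9%, with a median of 18.1%.

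The share of rising loci varied less between chromosomes than the share switched on. Rises numbered 12 of 97 on chromosome 1 (12.4%), 20 of 179 on chromosome 2 (11.2%), 12 of 132 on chromosome 3 (9.09%), 11 of 107 on chromosome 4 (10.3%) and 10 of 77 on chromosome 5 (13.0%). No test between chromosomes was made, since loci on a chromosome are not independent samples. On each of the 5 chromosomes 0 loci fell by limma, with 0 to 2 lower at an unadjusted p under the threshold.

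**Figure D3:**
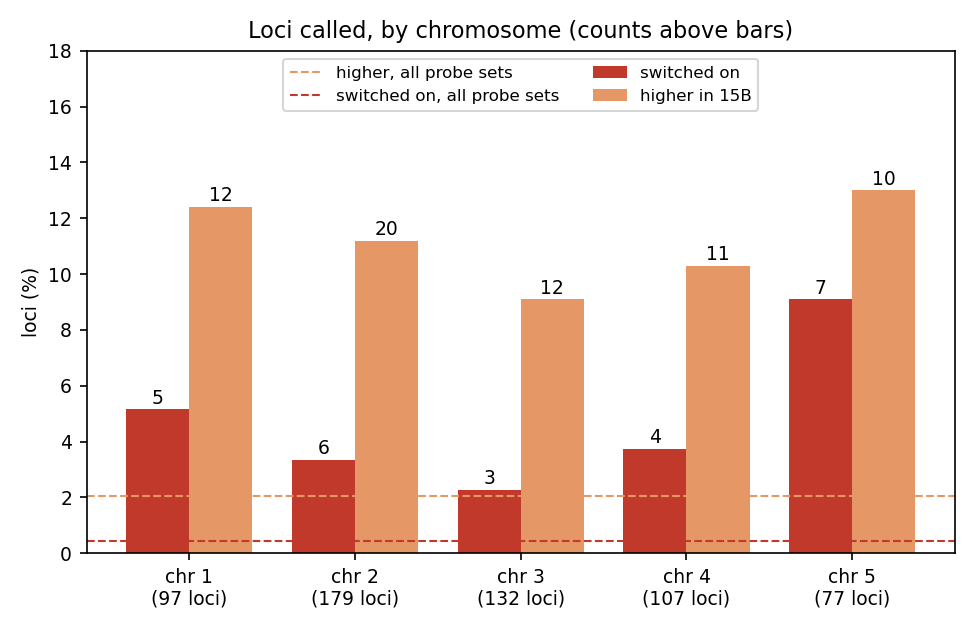
Share of the loci on each chromosome that were switched on (dark bars) or higher in 15B (light bars), in percent, with counts above the bars and dashed lines for the same shares over all 22746 probe sets. Chromosome 5 has the tallest bars of both kinds and chromosome 3 the shortest.

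Within the windows the count of switched-on loci differed between parts of the gene order, which is a description with no test. The loci of each chromosome were ordered by TAIR10.1 position and divided into 3 parts of nearly equal number. The first parts together held 15 switched-on loci of 199 (7.54%), the middle parts 5 of 198 (2.53%) and the last parts 5 of 195 (2.56%). Rises numbered 30, 17 and 18 in the same order. Chromosome 5 contributed 6 of the 15, chromosomes 1 and 3 contributed 3 each, and only chromosome 4 had most of its switched-on loci, 3 of 4, in the middle. Chromosome 2 had 2 in each part. The first 4 loci of chromosome 5, AT5G26020, AT5G26350, AT5G27160 and AT5G27180, were all switched on, and no other switched-on loci were next to each other in the order of the 592. In all, 10 pairs of loci next to each other both rose. By chromosome these were 2 of 96 pairs, 1 of 178, 3 of 131, 1 of 106 and 3 of 76. How many such pairs rises spread independently would give was not computed. The longest stretch without a rise was 38 loci, on chromosome 3.

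**Figure D4:**
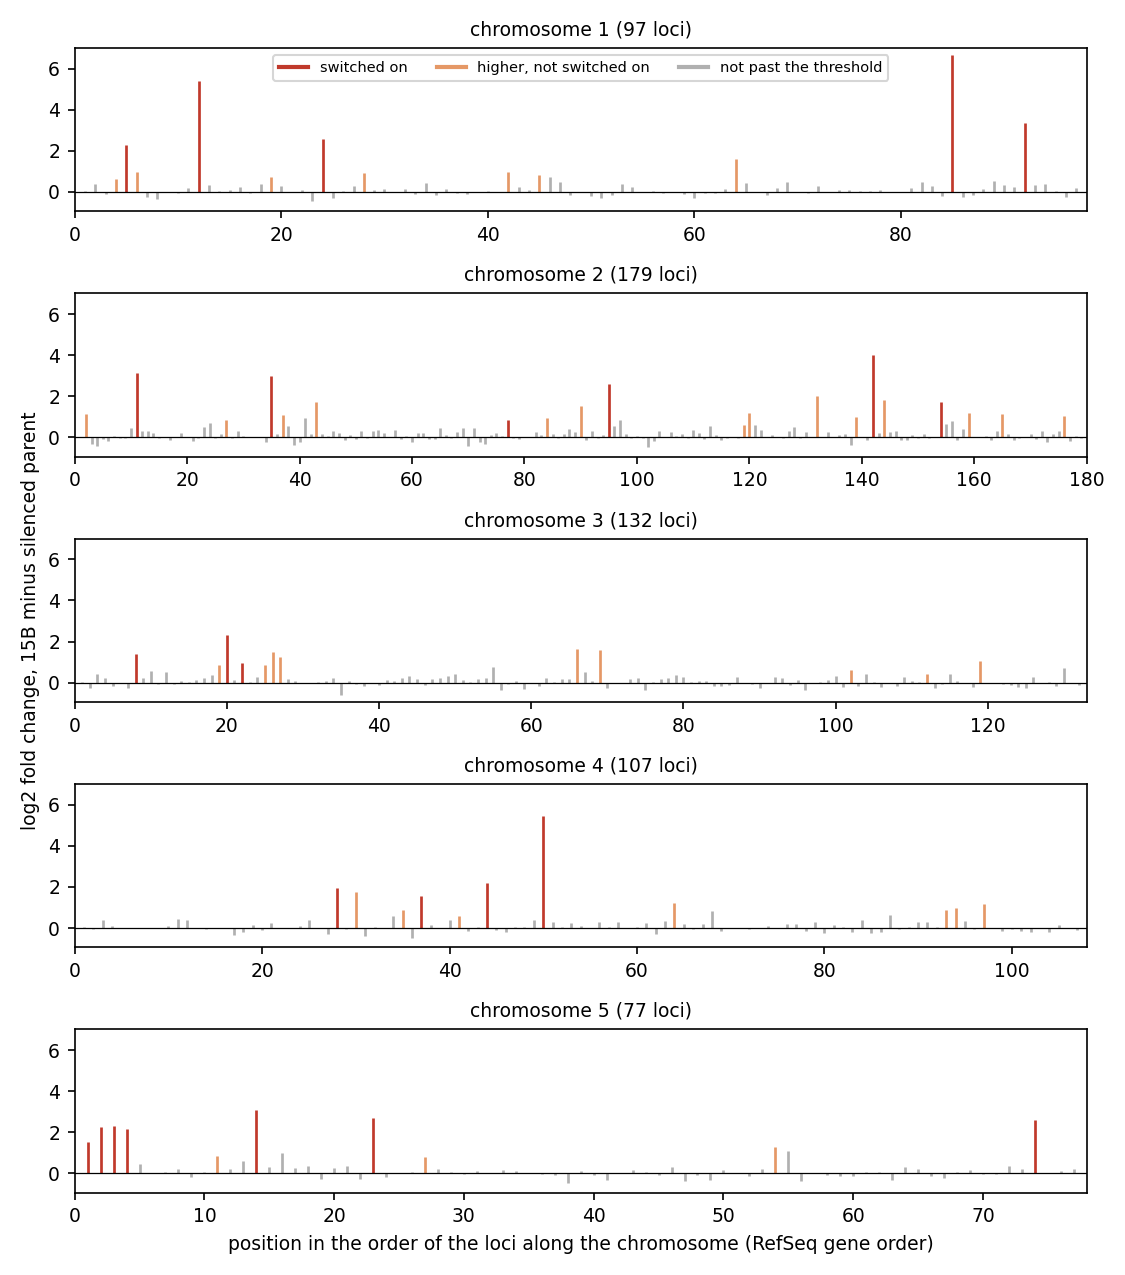
Log2 fold change (15B minus silenced parent) of every locus in the order of the loci along each chromosome, coloured by call. Switched-on loci stand mostly alone among loci near 0, apart from the run of 4 at the start of chromosome 5.

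For each of the 25, the nearest gene with a named unique probe set was taken on both sides, which gave 49 different genes. Closer genes may be read by the 8730 probe sets that name no gene. The genes taken are often not adjacent. Of the 50 pairs, 18 had no other gene between them, 31 had 1 to 8, and AT4G05640 and AT4G07330 had 236. By limma 2 of the 49 rose (4.08%, against 2.04% of all probe sets), 0 fell and 0 were switched on. At an unadjusted p under 0.05, 12 were higher (24.5%, against 7.54% of all probe sets and 18.2% of the 592 loci) and 1 lower. Of the 12, 7 were themselves among the 592 and 5 were protein-coding. The median log2 fold change of the 49 was 0.14. Protein-coding genes made up 24 of the 49, of which 1 rose, AT1G35617, which has 7 genes between it and AT1G35647, with a mean of 75.1 in 15B against 35.5 in the silenced parent (log2 fold change 0.92, SE 0.18, limma adjusted p = 0.0178). A further 24 were themselves pericentromeric pseudogene-annotated loci, of which 1 rose, AT3G30330, with 4 genes between it and AT3G30360. AT1G43840, with the largest rise of the 592, has 2 protein-coding neighbours among the 49. AT1G43810, with 5 genes between, was at 16.4 in 15B against 19.2 in the silenced parent. SEU (SEUSS, a transcriptional co-regulator of flower development), with 1 gene between, was at 105 in 15B against 107 in the silenced parent. AT5G27170, between AT5G27160 and AT5G27180, read 14.6 in 15B against 6.15 in the silenced parent and did not pass (0.57, SE 0.24, limma adjusted p = 0.260).

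Apart from the switched-on loci, 40 loci rose. Of these, 36 were silent in the parent but reached 30 on some arrays of 15B (16 loci) or on none (20 loci). Their log2 fold changes lay between 0.44 and 2.03 with a median of 1.00. AT2G13310 read 35.6, 19.3, 40.6 and 51.4 in 15B, against 0.1, 0.1, 1.0 and 3.3 in the silenced parent (2.03, SE 0.22). AT2G14330 read 21.2, 51.7, 29.6 and 20.7 in 15B, against 1.2, 1.0, 1.1 and 1.9 in the silenced parent (1.79, SE 0.21). Both missed the switched-on rule through 1 or more dim arrays of 15B, although no array of 15B was as low as a parent array. AT4G04270 (1.74, SE 0.13), AT2G06490 (1.69, SE 0.13), AT3G33080 (1.62, SE 0.18) and AT1G42200 (1.58, SE 0.19) followed, all with parent signals of 3.0 or less. Just inside the level, the lowest array of 15B read 33.4 for AT3G30480, 35.3 for AT5G27180 and 37.3 for AT4G04530. Just outside it, the lowest array read 29.9 for AT1G35370, 26.7 for AT4G04270 and 26.2 for AT2G12420.

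Of the 45 loci with 30 or more on a parent array, 4 rose, against 241 of 15113 such probe sets on the whole array. AT3G42820 read 76.6, 67.6, 90.3 and 75.0 in 15B, against 47.3, 44.9, 42.2 and 50.2 in the silenced parent (log2 fold change 0.63, SE 0.11, limma adjusted p = 0.00930). AT2G15510 read 69.4, 108, 86.1 and 74.8 in 15B, against 32.5, 25.8, 31.1 and 39.9 in the silenced parent (1.15, SE 0.15). AT2G04460 read 61.2, 79.8, 70.7 and 98.2 in 15B, against 24.1, 22.6, 33.2 and 43.1 in the silenced parent (1.11, SE 0.18). AT2G16000 read 51.0, 54.7, 59.8 and 57.3 in 15B, against 17.9, 22.1, 18.0 and 32.6 in the silenced parent (1.03, SE 0.16). All 4 thus gave some signal in the parent and more in 15B, and the groups did not overlap.

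Loci with the highest parent signal among those that did not pass showed no common direction. AT4G08220 averaged 100.3 ± 17.2 in 15B and 98.9 ± 19.8 in the silenced parent (SD, n = 4 each, log2 fold change 0.03, 95% interval -0.32 to 0.37). AT3G43510 averaged 49.8 ± 7.97 in 15B and 58.1 ± 8.02 in the silenced parent (-0.19, -0.49 to 0.10). AT3G32270 averaged 39.3 ± 11.3 in 15B, with a wide spread of 23.5 to 71.0 among the parent arrays (-0.30, -0.90 to 0.30). AT2G13940 (0.17), AT4G09710 (-0.10) and AT3G31920 (0.41, with 1 array of 15B at 90.6) were also within their spread. The intervals are wide enough that a modest change of any of these loci was not detectable with 4 arrays a group.

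The share that rose was between 10.2% and 15.0% in each band of parent signal. Of loci with a parent mean under 5, 36 of 324 rose (11.1%), and of those between 5 and 10, 13 of 121 (10.7%). Between 10 and 30 it was 13 of 127 (10.2%), and at 30 or more 3 of 20 (15.0%). Pericentromeric protein-coding genes with unique probe sets had 4 of 255 (1.57%), 1 of 152 (0.658%), 6 of 343 (1.75%) and 14 of 593 (2.36%) in the same 4 bands. In each band the share was higher for the pseudogene-annotated loci, which is a description with no test.

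Set beside the classes most like them, the loci gave the following counts. Among pericentromeric protein-coding genes 25 of 1343 rose (1.86%), 26 fell and 5 were switched on (0.372%), with a median log2 fold change of -0.01. Among pseudogene-annotated loci on the chromosome arms with unique probe sets 11 of 142 rose (7.75%), 0 fell (limma, with 20 higher and 0 lower before adjustment of p) and 4 were switched on (2.82%), with a median of 0.04. Fewer of these arm loci were silent in the parent (78.9%, against 92.4% of the 592). Of the silent ones 6.25% rose and 3.57% were switched on, against 11.2% and 4.57% of the silent loci among the 592. Pericentromeric pseudogene-annotated loci read by shared probes (_s_at or _x_at) had 69 of 154 up (44.8%) and 32 switched on (20.8%), but such probe sets can pick up several copies, so their signal cannot be assigned to 1 locus. None of these differences was tested. The 10 loci just inside a window border averaged between 0.3 and 57.9 in 15B and between 0.75 and 43.0 in the silenced parent, with 1 rise, and the 10 just outside between 1.57 and 53.9 in 15B and between 1.83 and 46.7 in the silenced parent, also with 1.

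**Figure D5:**
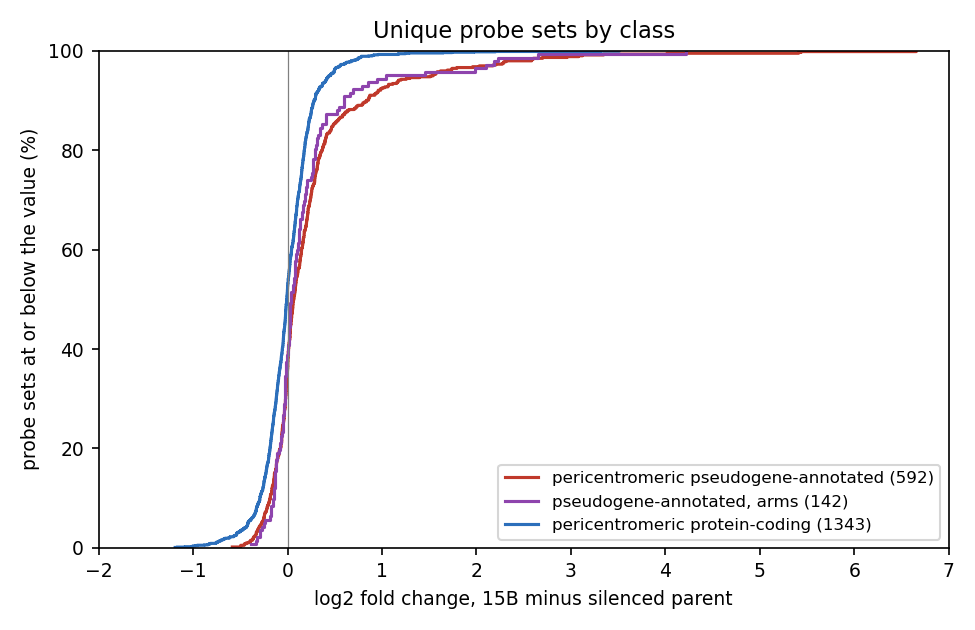
Cumulative share of unique probe sets (percent, vertical axis) at or below each log2 fold change (15B minus silenced parent, horizontal axis) for the 592 pericentromeric pseudogene-annotated loci, 142 such loci on the arms and 1343 pericentromeric protein-coding genes. The curves of the pseudogene-annotated classes run to the right of the protein-coding curve above 0, and the pericentromeric one reaches 6.66.

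Of 23 listed genes of DNA methylation, small RNA and related pathways, 2 were measured by named probe sets, neither of which sets DNA or histone methylation, and 0 of their 4 probe sets passed by limma (0 before adjustment of p). SE (SERRATE, which acts in microRNA processing) was at 0.27 (SE 0.14), and the 3 probe sets of DME, a DNA demethylase, lay between -0.21 and -0.13. Of 9 organ markers, 3 were measured by named probe sets, and by limma 0 passed (0 before adjustment of p). The others may be read by probe sets that name no gene. LHCB4.1, a light-harvesting protein of green tissue, averaged 4068 in 15B and 4265 in the silenced parent, and the root hair expansins EXPA7 and EXPA18 averaged 39.2 and 49.2 in 15B and 42.6 and 45.7 in the silenced parent. Organ makeup could be judged from these 3 markers alone, and its part in the rises was not tested.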

How the data were processed

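Total RNA was hybridised to 8 one-colour ATH1 arrays. The deposited table holds linear intensity values, 1 per probe set and array, which the authors had brought to a common scale (judged from the values). Which software summarised the probes, and how background was corrected, is not given in the sources used here. No detection calls and no probe sequences were used. From the 22810 probe sets 64 controls were left out. Values were taken as log2(signal + 10) and fitted by lmFit of limma 3.58.1 under R 4.3.3 (eBayes with an intensity trend, two-sided, Benjamini-Hochberg over 22746 probe sets), with no signal filter, since a filter on the mean of all arrays admits dim loci through 15B alone. Adjusted p stands for this value. The number of arrays limits the precision. No pair of arrays shared more than 0.958% of its values.

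Genes were named from the platform annotation of the probe sets through Entrez numbers in the RefSeq table of TAIR10.1: 13513 probe sets name 1 gene (13436 found), 503 several and 8730 none. TAIR10.1 served only for names, order and windows.

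The loci, lists and rules were chosen with earlier results of these data known. Named are all switched-on loci, the 6 largest other rises, the 4 other rises brightest in the parent, and the 6 brightest loci that did not pass. AT1G43920 and the neighbouring genes were named after their values were seen. The steps were tested on simulated arrays of the 2 lines (22746 probe sets); 13, 37, 47 and 50 of 50 planted changes of 0.5, 1, 2 and 4 (log2) were recovered, and data without changes gave 0 calls. Alternatives covered scaling, pseudocounts, filters, variance models, thresholds, signal levels, the replicate number as a block and leaving out arrays.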

Additional observations from a re-analysis of the deposited data

Results flagged for a closer look

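In 9 of 88 sets of 4 values examined, a single array stood apart from the other 3 of its group, and chance does this in about 1 in 20 sets. In 15B, AT1G44060 read 215.4 on replicate 4 against 132.1 to 142.0 on the others, and AT5G27180 read 35.3 on replicate 1 against 46.1 to 47.2. In the silenced parent, AT1G35647 read 4.5 on replicate 2 against 0.8 to 1.3, AT5G27160 read 0.4 on replicate 2 against 3.7 to 4.3, and AT2G06490 read 2.4 on replicate 1 against 0.3 to 0.5. AT3G43510 read 70.1 on parent replicate 2 against 53.1 to 54.8. Among array measures, the number of outlier cells was 1353 on replicate 2 of 15B and 403 to 505 on the other arrays of 15B. On replicate 4 of the silenced parent the scanner read a background of 197.77 (77.57 to 94.32 on the other parent arrays) and a noise of 13.54 (3.91 to 5.15).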

How the results depend on the processing

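All 25 switched-on loci were again switched on under every scaling, pseudocount, variance model and the replicate block, and with any 1 array left out (25 to 27 in total). Pseudocounts, variance models and the block leave the signals as they are, and leaving out an array can only ease the level of 30. In those settings a locus could therefore be lost through the fit alone. Leaving out any 1 array gave 56 to 61 rises, 25 to 27 switched on, 0 switched off, a median log2 fold change of 0.05 to 0.09, and 0 to 1 falls. The single fall, without replicate 1 of the silenced parent, was AT2G04580 (-0.59, limma adjusted p = 0.0362, against -0.41 and 0.277 with all arrays). With filters on the mean signal fewer loci can pass: at 30 or more 49 loci were fitted, 25 rose and 20 were switched on (median 0.63), and at 60 or more 10 were fitted, 9 rose and 8 were switched on (median 3.23). With a pseudocount of 1 the median was 0.20. A signal level of 60 gave 13 switched on, 10 of them among the 25, and a level of 20 gave 30, with 21 among the 25. At an adjusted p under 0.01, 49 rose and 24 were switched on. With the replicate block 58 rose. Same-numbered arrays correlated in their deviations at 0.13, -0.03, 0.02 and 0.05, and differently numbered arrays at -0.13 to 0.10. With 4 arrays a group this cannot settle whether the numbers pair the samples. Without replicate 4 of the silenced parent and replicate 2 of 15B, a choice made after seeing the data, 53 rose and 24 of the 25 were switched on, since AT3G30480 did not pass (0.95, limma adjusted p = 0.0650).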
